A study of Homo sapiens with 42 samples.

Results

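A set of 10 genes of cell adhesion and epithelial identity was followed across derivatives of RPMI-8226, a human multiple myeloma line, that is, a cancer of antibody-secreting plasma cells. They are the cadherins CDH1 and CDH3, the laminin chain LAMB3, the integrin chain ITGB4, the surface adhesion protein EPCAM, the keratin KRT18, the connexin GJA1, the caveolins CAV1 and CAV2, and the secreted glycoprotein OLFM4. They were chosen because they had been listed as genes that mark the difference between the derivative lines on these same arrays, so levels of the lines are given as a description with no test. All 18 probe sets annotated to the 10 genes, of 54675 on the array, were read. Of these, 16 were retained for testing, because their signal reached the median of the array on 3 or more of the 42 arrays. The retained probe sets numbered 35232 in all.

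The cells carried either a stably introduced, doxycycline-inducible shRNA against BMI1, a Polycomb group gene, or an inducible control shRNA. RNA was hybridized to Affymetrix U133 Plus 2 arrays in 14 groups of 3 arrays: each line at 0 h, and at 24, 32 and 48 h without doxycycline or with doxycycline at 100 ng/ml. All groups thus shared the parent line, a stable infection and medium with 1% serum. Whether each line is a clone or a pool, and whether replicate arrays came from separate cultures, is not given in the sources used here, so the p-values measure the spread between these arrays, which may be technical. For the undosed BMI1-shRNA cells at 0 h the labels contradict each other: by title they had no doxycycline, by a characteristic they had it, and by source name they were control cells. They are grouped here by title.

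Cadherins are calcium-dependent receptors through which a cell binds the same cadherin on its neighbour, and which are linked inside the cell to catenins and actin. Laminins are secreted basement membrane proteins, bound by integrins such as the one that contains ITGB4. Keratins form the intermediate filaments of epithelial cells, connexins build gap junction channels between adjoining cells, and caveolins coat small invaginations of the plasma membrane. In myeloma, adhesion of plasma cells to bone marrow stroma is known to bear on their survival.

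The arrays were checked against their labels first. The BMI1 probe set, which is also annotated to the readthrough transcript COMMD3-BMI1, read 139.8 to 234.0 on the dosed arrays of the BMI1-shRNA line. It read 758.3 to 1128.8 on that line's undosed arrays, 1009.3 to 1069.4 on its 0 h arrays and 1117.2 to 1363.7 in the control-shRNA line. On those 0 h arrays GJA1 read 100.2 to 111.7 and OLFM4 211.5 to 244.5. In the control-shRNA line these genes read 1435.7 to 1686.0 and 0.3 to 12.1. By these 2 genes the 0 h arrays were at the level of the BMI1-shRNA line, whatever their source name. Of 10 plasma cell markers, 9 read above the 75th percentile of the array on all 42 arrays. SLAMF7 was the exception, below the median on every array. The summed signal of this list was 19240.6 to 27844.2 in the BMI1-shRNA line and 20462.8 to 26723.1 in the control-shRNA line. Of 9 measured, 3 were called higher and 3 lower in the undosed BMI1-shRNA line (limma, adjusted p under 0.05), beside 42.6% of all genes. CD38 was among the higher, at 392.7 to 695.2 against 190.3 to 316.2, without overlap. Of 18 epithelial markers on the array, 11 read at or above the median on all 42 arrays, while KRT19 did so on none. The summed epithelial signal without the 3 members in it was 1900.9 to 2405.6 in the BMI1-shRNA line and 1732.1 to 2218.8 in the control-shRNA line. Fibroblast markers summed to 143.1 to 263.5 and 169.4 to 233.6 over 9 genes. B cell markers summed to 166.1 to 279.5 and 127.1 to 212.0 over 5 genes. Of these MS4A1, or CD20, read 82.9 to 137.4 and 12.6 to 26.9, and CR2, a complement receptor, 9.9 to 40.3 and 50.5 to 94.8, each without overlap. Their part in the line differences was not tested. T cell markers summed to 40.3 to 103.3 and 35.5 to 95.5 over 6 genes, endothelial markers to 60.9 to 108.0 and 38.9 to 79.0 over 7 genes. Monocyte markers summed to 53.9 to 118.4 and 77.3 to 134.7 over 7 genes. Of these S100A9 was dim but without overlap, at 1.9 to 20.6 and 26.5 to 66.9, and its part in the line differences was not tested.

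Each gene was read first at its brightest retained probe set. CDH1, CDH3, LAMB3 and OLFM4 were high in the BMI1-shRNA line and low in the control-shRNA line. GJA1 was the reverse. In these 5 genes the 21 arrays of each line did not overlap at any time or dose. For comparison, 6.61% of all retained probe sets separated the lines without overlap, 3.71% with the BMI1-shRNA line above and 2.9% with the control-shRNA line above. The remaining 5 genes overlapped, and ITGB4 was near background in both lines, against its listing as a gene that differs. In RNA from whole cultures, fewer cells carrying a transcript and less transcript per cell cannot be told apart.

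**Figure D1:**
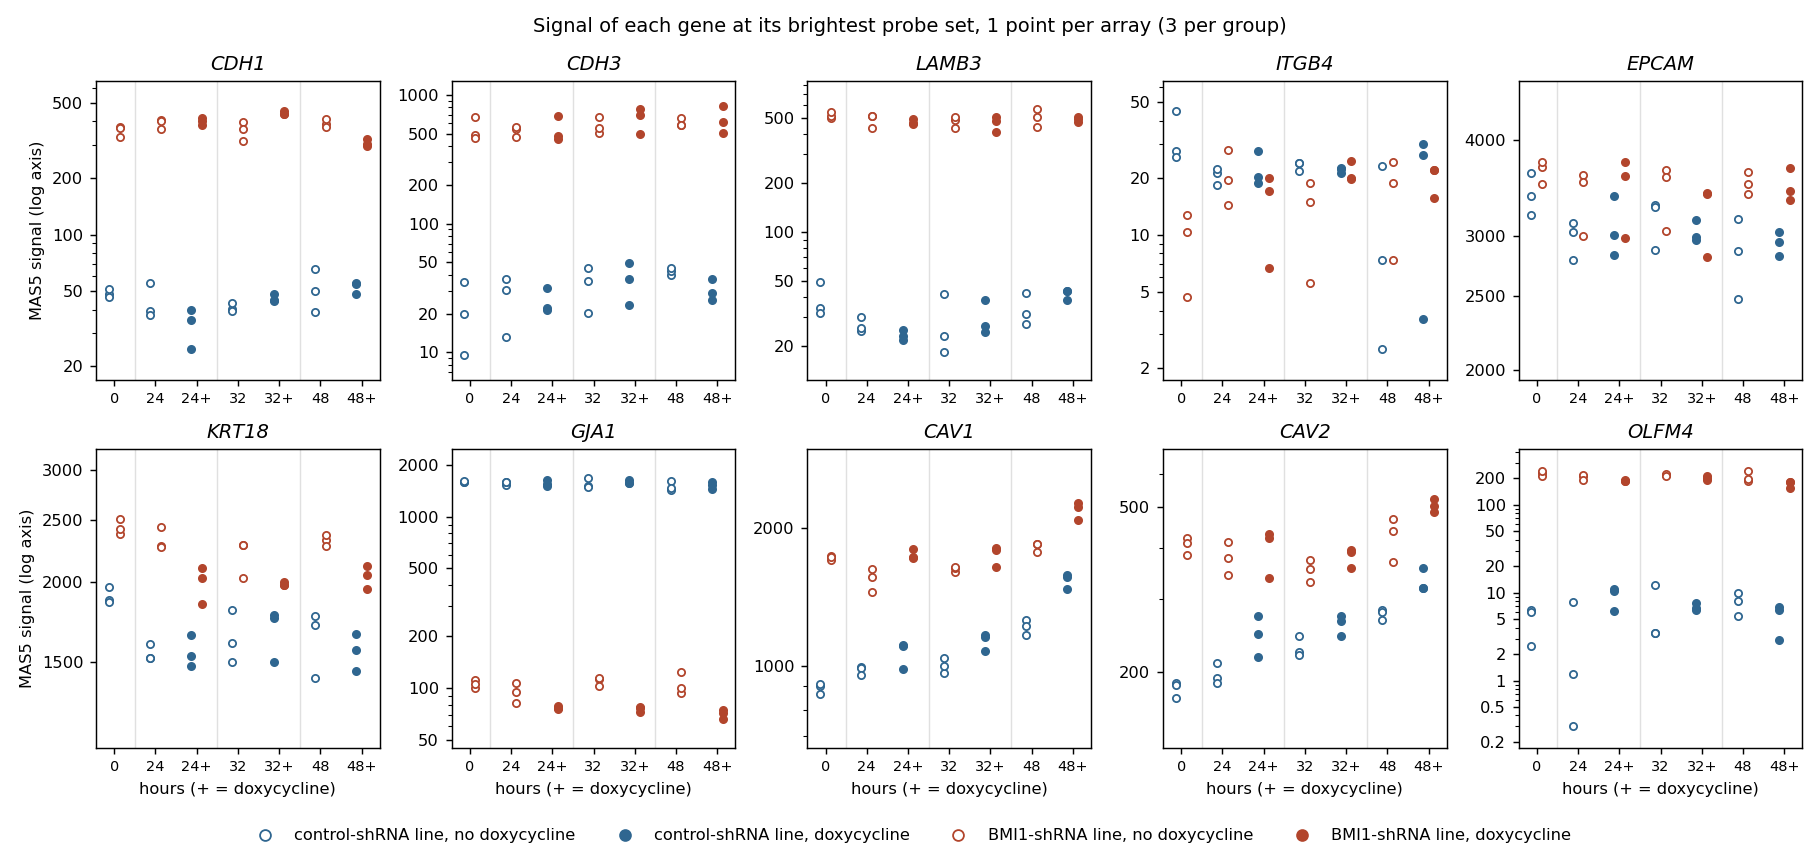
MAS5 signal (log axis, a separate range in each panel) of the 10 genes at their brightest probe set, by time in hours and doxycycline; each point is 1 array, 3 per group. CDH1, CDH3, LAMB3 and OLFM4 sit higher in all 21 arrays of the BMI1-shRNA line, GJA1 in all 21 arrays of the control-shRNA line, and the other 5 panels overlap.

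CDH1 encodes E-cadherin, the principal cadherin of epithelial adherens junctions. Its signal in the BMI1-shRNA line had a lowest value of 296.5, a median of 381.3 and a highest value of 450.6. In the control-shRNA line the corresponding values were 24.6, 44.9 and 65.8. The line means of 376.6 ± 44 and 45.3 ± 8.87 (SD, n = 21 each) differed 8.31-fold. All 42 arrays were above the array median, so the control-shRNA line read low but above the middle of the array. The second CDH1 probe set was dimmer (37.7 ± 12.2 against 7.3 ± 5.01, SD, n = 21 each), reached the array median on 20 of 42 arrays, and its lines overlapped.

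With doxycycline CDH1 in the BMI1-shRNA line read higher at 32 h and lower at 48 h, and neither difference passed the test. At 32 h the dosed arrays read 450.6, 435.0 and 433.1 against 312.7, 394.9 and 360.5 undosed, a log2 difference of 0.31 ± 0.13 (SE of the fit; limma adjusted p = 0.399). At 48 h they read 303.3, 296.5 and 321.7 against 384.0, 373.7 and 407.4, a difference of -0.33 ± 0.13 (adjusted p = 0.191). The dosed arrays did not overlap the undosed ones at either time. The share of all probe sets whose groups of 3 arrays separate in this way was not counted, here or further on. At 32 h the near-background ITGB4 separated in this line too, at 19.7 to 24.5 dosed against 5.6 to 18.8 undosed. The difference between those effects, a comparison added after the values were seen, was -0.64 ± 0.19 (adjusted p = 0.417; 0.00284% of probe sets called). Averaged over the 3 times the effect was 0.00 ± 0.08 in the BMI1-shRNA line and -0.05 ± 0.08 in the control-shRNA line.

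CDH3, or P-cadherin, is a cadherin of basal epithelial layers and lies next to CDH1 on chromosome 16 among the genes measured here. It read between 455.1 and 819.0 with a median of 559.9 in the BMI1-shRNA line, and between 9.6 and 49.0 with a median of 31.8 in the control-shRNA line. Means were 584.1 ± 105 and 31.1 ± 11 (SD, n = 21 each), an 18.8-fold difference. On 18 of 21 control-shRNA arrays the signal reached the array median. With the others set at their own array medians the difference was at least 18.4-fold. Within lines the pair did not track each other from array to array: Pearson's r between CDH1 and CDH3 was 0.04 in the BMI1-shRNA line and -0.07 in the control-shRNA line (n = 21 arrays each, a description). The mean doxycycline effect on CDH3 was 0.08 ± 0.16 and -0.11 ± 0.16, respectively (adjusted p = 0.872 and 0.973). ZFP90 and TANGO6, the nearest measured genes on either side of the pair, read 223.2 against 215.8 and 307.5 against 274.7. Their line differences were 0.03 ± 0.06 (adjusted p = 0.714) and 0.19 ± 0.06 (adjusted p = 0.0056). Beyond ZFP90, SMPD3 was at 63.6 against 47.1, a line difference of 0.41 ± 0.13 (limma adjusted p = 0.0138). Beyond TANGO6, HAS3 gave 0.03 ± 0.15 (limma adjusted p = 0.92).

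LAMB3 encodes the beta chain of laminin-332, the anchoring laminin of epithelial basement membranes. Its signal ran from 409.3 to 570.4 with a median of 495.9 in the BMI1-shRNA line, and from 18.5 to 49.3 with a median of 30.2 in the control-shRNA line. The means, 488.8 ± 38.6 and 31.7 ± 8.82 (SD, n = 21 each), differed 15.4-fold. The mean doxycycline effects were -0.04 ± 0.10 in the BMI1-shRNA line and 0.09 ± 0.10 in the control-shRNA line (adjusted p = 0.914 and 0.962). G0S2, which encodes an inhibitor of triglyceride breakdown and is the second measured gene after LAMB3 on chromosome 1, separated the lines in the same direction. It read 822.9 on average in the BMI1-shRNA line and 92.0 in the control-shRNA line, a line difference of 3.09 ± 0.06 (adjusted p = 7.22e-32), with no overlap. HSD11B1-AS1, which lies between them, was at 38.0 against 9.5. On the other side of LAMB3, MIR205HG was dim in both lines, at 2.6 and 11.5, and reached the array median on 3 of the 42 arrays. Nearer to LAMB3 on that side, MIR205 was called lower in the BMI1-shRNA line, at 9.7 against 20.2 (limma adjusted p = 0.00012). It was dim too, at the array median on 2 of 21 BMI1-shRNA and 15 of 21 control-shRNA arrays.

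OLFM4, olfactomedin-4, is a secreted glycoprotein known from intestinal crypt cells and neutrophils. In the BMI1-shRNA line it ran from 156.2 to 244.5 with a median of 198.9, and in the control-shRNA line from 0.3 to 12.1 with a median of 6.3. All 21 control-shRNA arrays were below the array median for this probe set, so its ratio of means is not a measured fold. Against the mean of those arrays' medians, 18.5, the BMI1-shRNA mean of 203.2 ± 21.9 (SD, n = 21) was at least 11-fold higher. The log2 difference of the fit is no measured size for OLFM4, since it depends on the pseudocount (4.36, or 3.23 with the median as pseudocount). Folds written as at least a value further on were made in the same way, with each array of the dimmer line set at its own signal or its median, whichever was higher. The nearest measured genes, CNMD, SUGT1 and PCDH17, had line differences of 0.24 ± 0.27, -0.04 ± 0.03 and 0.10 ± 0.21 (adjusted p = 0.564, 0.403 and 0.777). DIAPH3, the second measured gene after OLFM4, was called lower in the BMI1-shRNA line, at -0.17 ± 0.04 (limma adjusted p = 0.000134). With doxycycline the BMI1-shRNA arrays read 156.2, 182.4 and 181.7 at 48 h against 184.2, 195.0 and 239.3 without. These groups did not overlap, but the difference of -0.24 ± 0.23 did not pass the test (adjusted p = 0.747). The RefSeq promoter of OLFM4 (GRCh38.p14, chr13:53028563-53028862, plus strand, 250 bases before to 50 after the start) is shown because OLFM4 is the member that was below the array median on every control-shRNA array; capitals mark a match to the AP-1 motif TGANTCA, which 7.71% of 35116 promoters of this length hold on either strand.
OLFM4: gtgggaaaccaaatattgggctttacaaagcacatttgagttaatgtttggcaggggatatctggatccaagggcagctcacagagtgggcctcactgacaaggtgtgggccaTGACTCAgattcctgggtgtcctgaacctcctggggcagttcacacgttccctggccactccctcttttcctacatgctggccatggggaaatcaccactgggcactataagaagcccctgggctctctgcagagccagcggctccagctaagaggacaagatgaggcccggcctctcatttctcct

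ITGB4 encodes the integrin chain that pairs with ITGA6 to bind laminin-332 in hemidesmosomes. All 5 of its probe sets were dim. The brightest read 4.7 to 27.9 in the BMI1-shRNA line (median 18.8) and 2.5 to 44.7 in the control-shRNA line (median 22.1), and 28 of 42 arrays reached the array median. The means of 16.5 ± 6.58 and 21.6 ± 9.06 (SD, n = 21 each) differed by less than the spread between arrays. Another pair reached the median on 7 arrays each and the remaining pair on 2 arrays each, which left the last pair out of the tests. None of its 3 retained probe sets passed the test for doxycycline or time.

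EPCAM, a surface adhesion protein of epithelial cells, was bright in both lines. It ran from 2815.1 to 3749.3 with a median of 3509.9 in the BMI1-shRNA line and from 2481.0 to 3625.2 with a median of 3037.6 in the control-shRNA line. The means, 3443.4 ± 270 and 3057.9 ± 254 (SD, n = 21 each), lay 1.13-fold apart. Its mean doxycycline effects were -0.03 ± 0.05 and 0.02 ± 0.05 (adjusted p = 0.861 and 0.995). KCNK12, a potassium channel gene that follows EPCAM in the order of measured genes, was instead higher in the control-shRNA line, at 191.1 against 60.8, a line difference of -1.66 ± 0.10 (adjusted p = 1.12e-16).

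KRT18 encodes a simple-epithelial keratin that polymerizes with KRT8. Its probe set is of the kind that can also bind related sequences, so reads of KRT18 copies elsewhere in the genome cannot be separated from it. It ran from 1847.7 to 2513.0 (median 2271.1) in the BMI1-shRNA line and from 1416.5 to 1969.2 (median 1604.9) in the control-shRNA line, with means 1.33-fold apart. KRT8, its neighbour on chromosome 12, read 42.4 and 44.3, a line difference of -0.17 ± 0.12 (adjusted p = 0.31).

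KRT18 fell with doxycycline in the BMI1-shRNA line. Dosed arrays read 2103.5, 2034.5 and 1847.7 at 24 h, 2000.5, 1981.7 and 1977.5 at 32 h, and 2051.8, 2121.3 and 1956.0 at 48 h. Undosed arrays read 2439.7, 2278.0 and 2271.1, then 2287.7, 2031.8 and 2291.1, then 2326.9, 2370.2 and 2282.2. The dosed group lay below the undosed group without overlap at each time. The mean effect was -0.19 ± 0.04 (adjusted p = 0.00371), against -0.01 ± 0.04 in the control-shRNA line (adjusted p = 0.997). The difference between the lines' effects, -0.18 ± 0.06, did not pass the test (adjusted p = 0.124), but passed at -0.21 without replicate 3 of the dosed 32 h control-shRNA group (adjusted p = 0.0452). EIF4B, a translation initiation factor gene next to KRT18, had an effect of -0.17 ± 0.04 in the same line (adjusted p = 0.00368). In the undosed control-shRNA line KRT18 read 1969.2, 1878.3 and 1864.9 at 0 h and 1521.7, 1603.5 and 1520.0 at 24 h. That step of -0.30 ± 0.07 passed narrowly (adjusted p = 0.0367), where 0.925% of probe sets were called. Without any of the 6 arrays in turn it did not pass (adjusted p = 0.0698 to 0.157).

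GJA1 encodes connexin 43, the most widespread gap junction protein. In the control-shRNA line its signal ran from 1435.7 to 1686.0 with a median of 1568.0, and in the BMI1-shRNA line from 65.8 to 124.8 with a median of 93.2. The means of 1561.5 ± 64.7 and 91.3 ± 17.5 (SD, n = 21 each) differed 17.1-fold. All arrays of both lines were above the array median. The RefSeq promoter of GJA1 (GRCh38.p14, chr6:121435396-121435695, plus strand, 250 bases before to 50 after the start) is shown because GJA1 had the largest called doxycycline effect of the 10 genes; it too holds 1 match to that motif, in capitals.
GJA1: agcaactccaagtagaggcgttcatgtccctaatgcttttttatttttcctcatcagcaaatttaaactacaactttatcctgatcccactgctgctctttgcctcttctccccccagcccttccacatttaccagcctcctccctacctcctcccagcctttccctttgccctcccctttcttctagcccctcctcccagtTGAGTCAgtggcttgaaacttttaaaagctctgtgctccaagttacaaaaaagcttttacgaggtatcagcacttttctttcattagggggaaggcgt

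The low level of GJA1 in the BMI1-shRNA line fell further with doxycycline. At 24 h the dosed arrays read 78.0, 75.1 and 76.6 against 82.2, 107.5 and 95.0 undosed. At 32 h they read 77.8, 72.0 and 76.6 against 112.3, 102.3 and 114.8, and at 48 h 71.5, 74.8 and 65.8 against 93.2, 100.0 and 124.8. Every dosed array of the line was below every undosed array. The mean log2 effect was -0.44 ± 0.05 (adjusted p = 3.39e-09), in a comparison that called 5.83% of all probe sets. By time it was -0.28 ± 0.08 at 24 h (adjusted p = 0.0924, or 0.0182 without replicate 1 of the undosed 24 h group), -0.51 ± 0.08 at 32 h (adjusted p = 6.46e-05) and -0.54 ± 0.08 at 48 h (adjusted p = 1.07e-05), where 0.897%, 1.38% and 3.83% of probe sets were called. Fitted on the 2 groups of the comparison alone, the effects at 32 and 48 h did not pass (adjusted p = 0.173 and 0.159).

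In the control-shRNA line the dosed GJA1 arrays read 1558.6, 1641.9 and 1518.2 at 24 h, 1568.0, 1628.4 and 1565.4 at 32 h, and 1529.2, 1584.7 and 1448.9 at 48 h. Undosed they read 1540.7, 1589.0 and 1594.4, then 1514.0, 1484.7 and 1686.0, then 1623.7, 1435.7 and 1481.3. The groups overlapped at each time, and the mean effect was 0.01 ± 0.05 (adjusted p = 0.997). The effects of the lines differed by -0.46 ± 0.07 (adjusted p = 7.99e-06), and GJA1 was the only member called in that comparison, which called 2.53% of all probe sets. The effect is on the scale of log2(signal + 5.4), which understates changes of low signals. MAN1A1, a mannosidase gene and the second measured gene before GJA1 on chromosome 6, had an effect of -0.68 ± 0.06 in the BMI1-shRNA line (adjusted p = 7.52e-12). TBC1D32, which lies between them, had -0.23 ± 0.17 (adjusted p = 0.58).

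**Figure D2:**
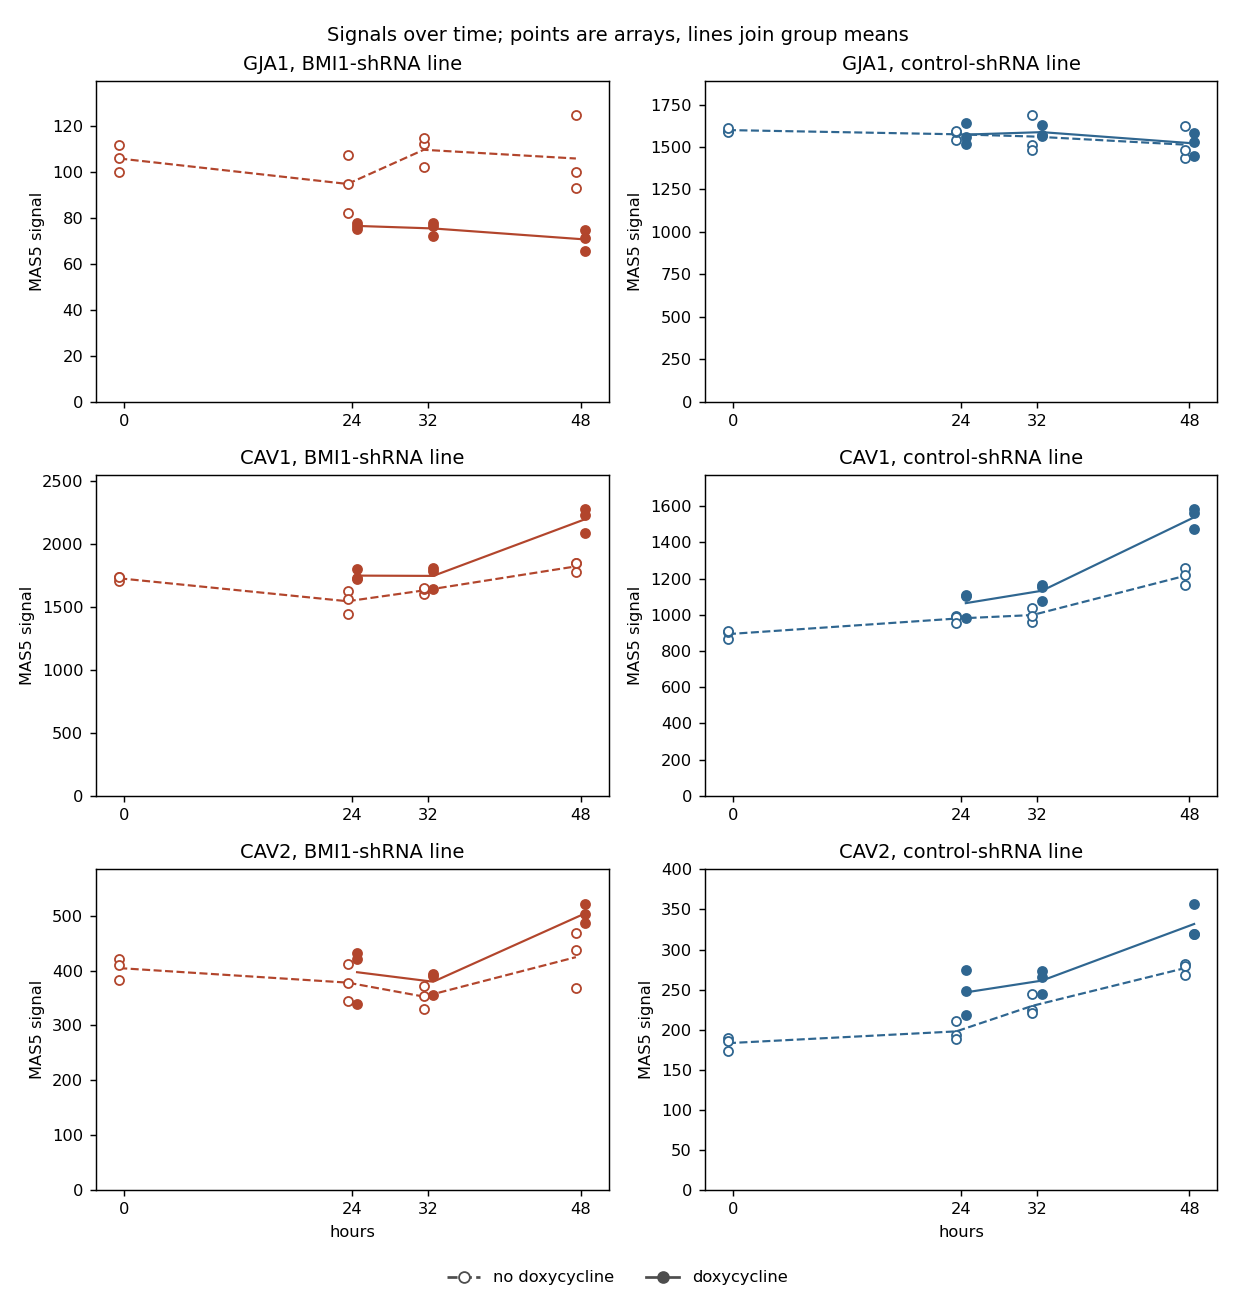
MAS5 signal (linear axes from 0) over time in hours for GJA1, CAV1 and CAV2 at their brightest probe set, in each line. Points are arrays, and lines join the means of 3 arrays without (open, dashed) and with doxycycline (filled, solid). GJA1 is lower with doxycycline in the BMI1-shRNA line (65.8 to 78.0 against 82.2 to 124.8), and CAV1 and CAV2 are highest at 48 h with doxycycline in both lines.

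CAV1 and CAV2, neighbours on chromosome 7 whose products assemble together in caveolae, were higher in the BMI1-shRNA line. At its brightest probe set, CAV1 rose with doxycycline, and from 24 to 48 h, in both lines, while its second probe set passed each test in 1 line only. At its brightest probe set, CAV2 rose from 24 to 48 h in the undosed control-shRNA line, while its second probe set did not pass that test. CAV1 ran from 1448.7 to 2275.9 with a median of 1735.7 in the BMI1-shRNA line and from 865.8 to 1582.6 with a median of 1078.7 in the control-shRNA line, a 1.59-fold difference of means. The line difference of CAV1 was 0.95 ± 0.02 at 0 h and 0.51 ± 0.05 at 48 h with doxycycline on the log2 scale, and only the 3 dosed 48 h arrays of the control-shRNA line reached the range of the other line. CAV2 ran from 330.8 to 522.5 and from 173.9 to 357.4, with medians of 393.6 and 244.9. The second CAV1 probe set gave a ratio of 1.61, and a second CAV2 probe set (129.4 ± 11.4 against 78.8 ± 11.7, SD, n = 21 each) separated the lines without overlap. The third CAV2 probe set reached the array median on only 5 arrays. TES, the nearest measured gene before CAV2, was called higher in the BMI1-shRNA line, at 1144.1 against 1024.1 (limma adjusted p = 0.0114). So was MET, the nearest after CAV1, at 47.8 against 34.6 (limma adjusted p = 0.00841). CAPZA2, beyond MET, was not called (0.01 ± 0.03, limma adjusted p = 0.833). TFEC, a transcription factor gene on the far side of CAV2, was higher in the control-shRNA line, at 52.1 against 7.2, below the array median on all 21 arrays of the BMI1-shRNA line and so at least 2.72-fold apart (adjusted p = 5.6e-16).

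The first RefSeq start sites of CAV2 (GRCh38.p14, chr7:116499488-116499787, plus strand) and CAV1 (chr7:116524759-116525058, plus strand) are shown because the pair correlated within each line at their brightest probe sets. Capitals mark GC boxes, GGGCGG on either strand. The CAV2 window holds 6 and the CAV1 window 3, and 45% of 35116 promoters of this length hold at least 1. Of the other motifs searched on both strands, AP-1 (TGANTCA), an E-box (CACCTG, held by 20.6%) and a TATA box (TATAAA, held by 11.5%), these letters do not occur in either window. Guanine and cytosine make up 82.7% of the CAV2 and 62.3% of the CAV1 window.
CAV2: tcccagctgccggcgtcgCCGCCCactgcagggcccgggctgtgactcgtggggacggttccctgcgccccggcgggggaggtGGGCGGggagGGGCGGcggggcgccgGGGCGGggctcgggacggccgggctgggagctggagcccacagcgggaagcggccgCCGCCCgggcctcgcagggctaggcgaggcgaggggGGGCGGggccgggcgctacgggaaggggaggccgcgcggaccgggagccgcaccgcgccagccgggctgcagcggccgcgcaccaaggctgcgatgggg
CAV1: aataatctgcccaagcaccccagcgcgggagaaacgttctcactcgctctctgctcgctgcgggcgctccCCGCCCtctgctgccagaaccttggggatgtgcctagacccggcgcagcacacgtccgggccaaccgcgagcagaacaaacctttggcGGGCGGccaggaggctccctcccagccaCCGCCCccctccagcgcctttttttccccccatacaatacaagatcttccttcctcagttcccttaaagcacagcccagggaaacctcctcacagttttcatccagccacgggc

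Across the arrays of a line, CAV1 and CAV2 followed each other, with Pearson's r = 0.74 in the BMI1-shRNA line and 0.94 in the control-shRNA line (n = 21 arrays each, sharing time and doxycycline, a description). The 2 CAV1 probe sets gave 0.80 and 0.88. The 2 brighter CAV2 probe sets gave 0.67 in the control-shRNA line but 0.03 in the BMI1-shRNA line, and the CAV2 values below are those of its brightest probe set unless stated.

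With doxycycline, CAV1 in the BMI1-shRNA line read 1800.0, 1728.8 and 1721.3 at 24 h against 1625.9, 1563.9 and 1448.7 without. At 48 h it read 2091.1, 2275.9 and 2230.8 against 1846.7, 1776.2 and 1847.3. These groups did not overlap, while those at 32 h did. The mean effect was 0.18 ± 0.03 (adjusted p = 6.59e-05), and 0.19 ± 0.05 at the second probe set (adjusted p = 0.0158, or 0.0537 without replicate 2 of the dosed 48 h group). At 48 h alone it was 0.27 ± 0.05 (adjusted p = 0.000999, or 0.0817 fitted on the 2 groups alone).

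In the control-shRNA line CAV1 read 1562.7, 1582.6 and 1473.1 at 48 h with doxycycline against 1260.0, 1220.9 and 1164.5 without. At 32 h it read 1078.7, 1154.4 and 1166.4 against 1038.5, 961.8 and 996.0. Both pairs of groups were without overlap, and those at 24 h overlapped. The mean effect was 0.21 ± 0.03 (adjusted p = 0.000136), in a comparison that called only 25 of 35232 probe sets, 0.071%. At the second probe set it was 0.17 ± 0.05 and did not pass (adjusted p = 0.55). The effect at 48 h, 0.34 ± 0.05, was among 4 calls or 0.0114% (adjusted p = 0.00196), and did not pass without replicate 3 of the undosed 48 h group (adjusted p = 0.06) or when fitted on the 2 groups alone (adjusted p = 0.999). The CAV1 effects of the lines differed by -0.03 ± 0.04 (adjusted p = 0.836).

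CAV2 had a mean doxycycline effect of 0.25 ± 0.05 in the control-shRNA line (adjusted p = 0.0396), a call that was lost on leaving out 13 of 18 arrays 1 at a time and under 4 of 10 other settings (highest adjusted p = 0.151). In the BMI1-shRNA line it was 0.14 ± 0.05 (adjusted p = 0.113), and 0.18 without replicate 2 of the dosed 24 h group (adjusted p = 0.0259). At the second probe set the effects were 0.05 ± 0.06 and -0.11 ± 0.06.

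Time moved the caveolins without doxycycline as well. In the control-shRNA line CAV1 went from 995.1, 987.6 and 955.6 at 24 h to 1260.0, 1220.9 and 1164.5 at 48 h, a difference of 0.31 ± 0.05 (adjusted p = 0.00235). CAV2 went from 193.8, 211.1 and 188.4 to 282.4, 279.9 and 267.7, a difference of 0.47 ± 0.09 (adjusted p = 0.00669). These groups did not overlap, and that comparison called 0.358% of probe sets. The CAV2 step did not pass without replicate 3 of the undosed 24 h group (adjusted p = 0.0544), and neither step passed when fitted on the 2 groups alone (adjusted p = 0.139 and 0.119). At the second CAV1 probe set the step was 0.42 ± 0.09 (adjusted p = 0.0185), lost on leaving out 5 of 6 arrays. At the second CAV2 probe set it was 0.22 ± 0.11, without overlap, and did not pass (limma adjusted p = 0.472). In the undosed BMI1-shRNA line, where 0.596% were called, CAV1 rose by 0.24 ± 0.05 from 24 to 48 h (adjusted p = 0.026), a call lost on leaving out 5 of 6 arrays. The second CAV1 probe set gave 0.11 ± 0.09 there, with overlapping groups (adjusted p = 0.685), and CAV2 gave 0.16 ± 0.09 (adjusted p = 0.494). The lines' 24 to 48 h effects on CAV1 differed by -0.07 ± 0.08 (adjusted p = 0.873), where 0% of probe sets were called. From 0 to 24 h CAV1 means went from 893.5 to 979.4 in the undosed control-shRNA line (0.13 ± 0.05, limma adjusted p = 0.289). In the BMI1-shRNA line they went from 1728.6 to 1546.2 (-0.16 ± 0.05, limma adjusted p = 0.149), from 0 h arrays with conflicting labels. The groups did not overlap in either line. Neither step passed, nor did their difference (-0.29 ± 0.08, limma adjusted p = 0.151).

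On the dosed arrays, a comparison added after the values were seen, CAV1 rose from 24 to 48 h by 0.33 ± 0.05 in the BMI1-shRNA line (adjusted p = 0.000252) and by 0.53 ± 0.05 in the control-shRNA line (adjusted p = 2.34e-07), where 1.22% and 0.162% of probe sets were called. The second CAV1 probe set gave 0.29 ± 0.09 and 0.49 ± 0.09 (adjusted p = 0.119 and 0.00404). Neither step of the brightest probe set passed when fitted on the 2 groups alone (adjusted p = 0.121 and 0.133). CAV2 rose by 0.35 ± 0.09 and 0.43 ± 0.09 (adjusted p = 0.0373 and 0.0254), each lost on leaving out 5 of 6 arrays. The second CAV2 probe set gave 0.01 ± 0.11 and 0.40 ± 0.11, the latter without overlap, and passed in neither line (limma adjusted p = 0.984 and 0.163). CDH1 in the control-shRNA line went from 39.7, 35.1 and 24.6 to 48.2, 54.7 and 55.5 without overlap, a step of 0.61 ± 0.13 (adjusted p = 0.0299), lost on leaving out 4 of 6 arrays. Its dimmer second probe set went the other way, by -0.61 ± 0.40, and did not pass (limma adjusted p = 0.843). LAMB3 in the same comparison went from 25.3, 23.0 and 21.8 to 43.7, 43.7 and 38.3, also without overlap, a step of 0.72 ± 0.17 that did not pass (adjusted p = 0.0596). It passed under 3 other settings, a pseudocount of 1, the 75th percentile filter and 1 probe set per gene (adjusted p = 0.0467, 0.0333 and 0.04).

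Plasma cell markers moved in some of the same comparisons. Of 9 measured, 5 rose and none fell with doxycycline in the BMI1-shRNA line, 1 rose with doxycycline in the control-shRNA line, and 3 rose from 24 to 48 h in the undosed control-shRNA line. Of all genes, 7.54%, 0.122% and 0.51% were called in these comparisons. The summed signal of all 10 markers on the array at 24 to 48 h had a median of 22494.4 with and 23702.8 without doxycycline in the BMI1-shRNA line, and of 24235.1 and 22528.3 in the control-shRNA line (9 arrays each). JCHAIN was the brightest marker in these sums, at 6213.7 to 13715.2 and 6720.4 to 11632.1 over all arrays of each line. The part of these markers in the caveolin results was not tested.

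**Figure D3:**
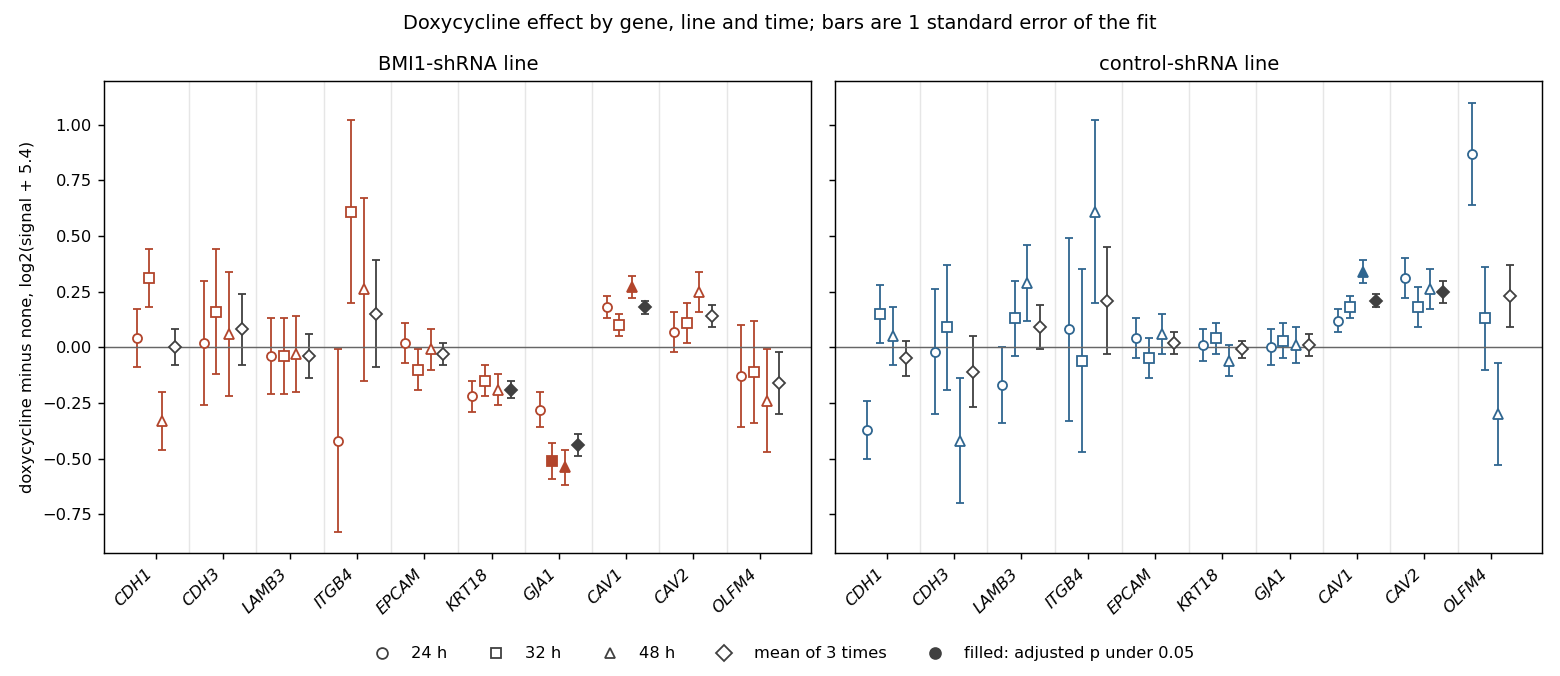
Doxycycline effect on log2(signal + 5.4) for the 10 genes at their brightest probe set, in the BMI1-shRNA line (left) and the control-shRNA line (right); markers are 24, 32 and 48 h and their mean, bars are 1 standard error and filled markers passed an adjusted p under 0.05. GJA1 is below 0 in the BMI1-shRNA line (mean -0.44) and at 0.01 in the control-shRNA line, while CAV1 is above 0 in both (0.18 and 0.21).

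Over the 16 retained probe sets the median doxycycline effect was 0.04 in the BMI1-shRNA line and 0.08 in the control-shRNA line, beside 0.03 and 0.00 over all 35232. In all, 4 of the 16 were called in the BMI1-shRNA line (CAV1 at both probe sets, KRT18 and GJA1), beside 5.83% of all probe sets, and 2 in the control-shRNA line (CAV1 and CAV2), beside 0.071%. By limma no member was called at 24 h in the BMI1-shRNA line, where 0.897% of all probe sets were called. The same held at 24 and 32 h in the control-shRNA line (0.0142% and 0.00851%) and for the difference of the 0 to 24 h effects (0.0114%). In that order, 4, 5, 1 and 3 of the 16 had an unadjusted p under 0.05. Of all 35232 probe sets, 3342, 1296, 1883 and 3747 did. From 0 to 24 h no member was called in the undosed BMI1-shRNA line (background 0.735%). That comparison rests on the 0 h arrays with conflicting labels. In it 2 of the 16 had an unadjusted p under 0.05, beside 4553 of all 35232. Outside the comparisons added after the values were seen, CDH1, CDH3, LAMB3, EPCAM, ITGB4 and OLFM4 were not called for doxycycline or time.

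The wider pathways of these genes were read from 10 lists, chosen with earlier results of these data known. Each gene outside the 10 was tested for a difference between the undosed lines over 24 to 48 h, where 42.6% of all genes were called at their brightest probe set (21.3% higher and 21.4% lower in the BMI1-shRNA line), and 35.1% of all probe sets (17% and 18.1%). Of 19 other adherens junction and desmosome genes, 4 were higher and 2 lower in the BMI1-shRNA line, with a median difference of 0.04 beside 0.01 over all genes. DSG2, a desmosomal cadherin, was at 1903.8 against 1085.1 (0.82 ± 0.04, adjusted p = 2.54e-20), and PLEKHA7, a junctional linker protein, was at least 1.48-fold higher, with 1 of 21 control-shRNA arrays at the array median (adjusted p = 7.43e-05). CTNNA1, the alpha-catenin that ties cadherins to actin, was lower at 1326.3 against 1552.4 (-0.25 ± 0.03, adjusted p = 9.1e-09). CTNNB1, beta-catenin, gave -0.01 ± 0.03 (adjusted p = 0.787). Its doxycycline effects differed between the lines by -0.16 ± 0.04 (adjusted p = 0.0464), where 3.31% of genes were called.

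Of 10 hemidesmosome and laminin genes, 4 were higher and 2 lower in the BMI1-shRNA line (median 0.03). DST, a plakin, and BMP1, a protease that processes laminin-332, were higher, at 323.5 against 207.2 and 130.9 against 88.4 (0.57 ± 0.08 and 0.59 ± 0.07). ITGA6, the partner of ITGB4, was called lower (adjusted p = 0.00745) but was dim, reaching the array median on 1 of 21 BMI1-shRNA and 14 of 21 control-shRNA arrays, so no fold is given. LAMB1, another laminin beta chain, was at 21.5 against 42.9, at least 1.92-fold lower. Of 20 integrins, 2 were higher and 5 lower (median -0.14). ITGA4, a chain of the receptor for VCAM1 and fibronectin, was at 7.0 against 34.7 without overlap, below the array median on all 21 arrays of the BMI1-shRNA line and so at least 1.81-fold lower (adjusted p = 6.11e-07). ITGB1, the common beta chain, fell with doxycycline in the BMI1-shRNA line, at -0.37 ± 0.05 (adjusted p = 2.36e-07), and its effects differed between the lines by -0.37 ± 0.07 (adjusted p = 0.000289).

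Of 10 other keratin-list genes, 3 were higher and 1 lower (median 0.09). KRT16, a stress keratin of stratified epithelium, was at 150.9 against 35.7 without overlap (2.02 ± 0.13, adjusted p = 1.46e-15), and KRT13 at 158.9 against 92.1 (0.79 ± 0.08). KRT80 fell with doxycycline in the BMI1-shRNA line, at -0.56 ± 0.09 (adjusted p = 2.33e-05). Of 7 genes beside GJA1 on the connexin and pannexin list, 3 were lower and 2 higher (median 0.11). Like GJA1, the connexins GJC1 and GJB2 were lower in the BMI1-shRNA line, at 5.2 against 43.9 and 190.9 against 412.8, both without overlap. The difference of GJB2 was -1.11 ± 0.06, while GJC1, below the array median on all 21 arrays of the BMI1-shRNA line, was at least 2.29-fold lower (adjusted p = 1.94e-13). PANX1, a pannexin channel protein, was also lower, at 297.0 against 393.4 (-0.53 ± 0.04, adjusted p = 5.74e-15). It was the only one of the 7 called for the mean doxycycline effect, and in the direction opposite to GJA1. In the BMI1-shRNA line PANX1 rose by 0.12 ± 0.04 (adjusted p = 0.0396), and its effects differed between the lines by 0.28 ± 0.05 (adjusted p = 0.000468). Part of that difference lies in the control-shRNA line, where the PANX1 effect was downward but not called. TJP1, the scaffold protein ZO-1 that binds connexin 43, was higher at 109.8 against 47.1 (1.18 ± 0.08, adjusted p = 7.39e-16).

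Of 9 caveolar genes beside the caveolins, 2 were higher (median 0.08). ROR1, a receptor on this list, was at 308.0 against 93.4 without overlap (1.72 ± 0.07, adjusted p = 2.04e-22). CAVIN1, the coat protein needed for caveolae, was dim in both lines at 16.6 and 15.2 (0.21 ± 0.22, adjusted p = 0.527). Of 16 tight junction genes, 5 were higher and 2 lower (median 0.10), among them CLDN7 at 61.7 against 16.6, at least 3.02-fold higher with 7 of 21 control-shRNA arrays at the array median, and the adaptor CGN at 95.8 against 46.5 (1.11 ± 0.10). Of 15 regulators of epithelial and mesenchymal states, 6 were higher and 3 lower (median 0.01). EHF, an epithelial ETS factor, was at 53.8 against 7.5, below the array median on all 21 control-shRNA arrays and so at least 2.91-fold higher (adjusted p = 4.2e-14). ESRP1, an epithelial splicing factor, was at 189.1 against 100.8 (0.92 ± 0.07). KLF4 was lower (-1.08 ± 0.13) and rose with doxycycline in the BMI1-shRNA line by 0.51 ± 0.13 (adjusted p = 0.00698).

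Of 5 other olfactomedin-family genes only OLFML2B was called, and lower, at 156.7 against 194.6 (-0.34 ± 0.05). Of 15 myeloma adhesion genes, 8 were higher and 4 lower in the BMI1-shRNA line (median 0.12). CD44, the hyaluronan receptor, was at 223.5 against 15.9 without overlap, at least 11.8-fold higher (adjusted p = 3.72e-27), and 7 of 21 control-shRNA arrays reached the array median. NCAM1 was at 246.2 against 96.7 and CD9 at 4641.3 against 2667.2 (1.21 ± 0.07 and 0.81 ± 0.04). CXCR4, the chemokine receptor for marrow homing, was lower at 1973.9 against 3090.1 (-0.70 ± 0.05). ICAM1 fell with doxycycline in the BMI1-shRNA line, at -0.36 ± 0.04 (adjusted p = 2.67e-09), with an effect that differed between the lines by -0.26 ± 0.05 (adjusted p = 0.00166). Of 12 other epithelial markers, 4 were higher and none lower (median 0.27).

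**Figure D4:**
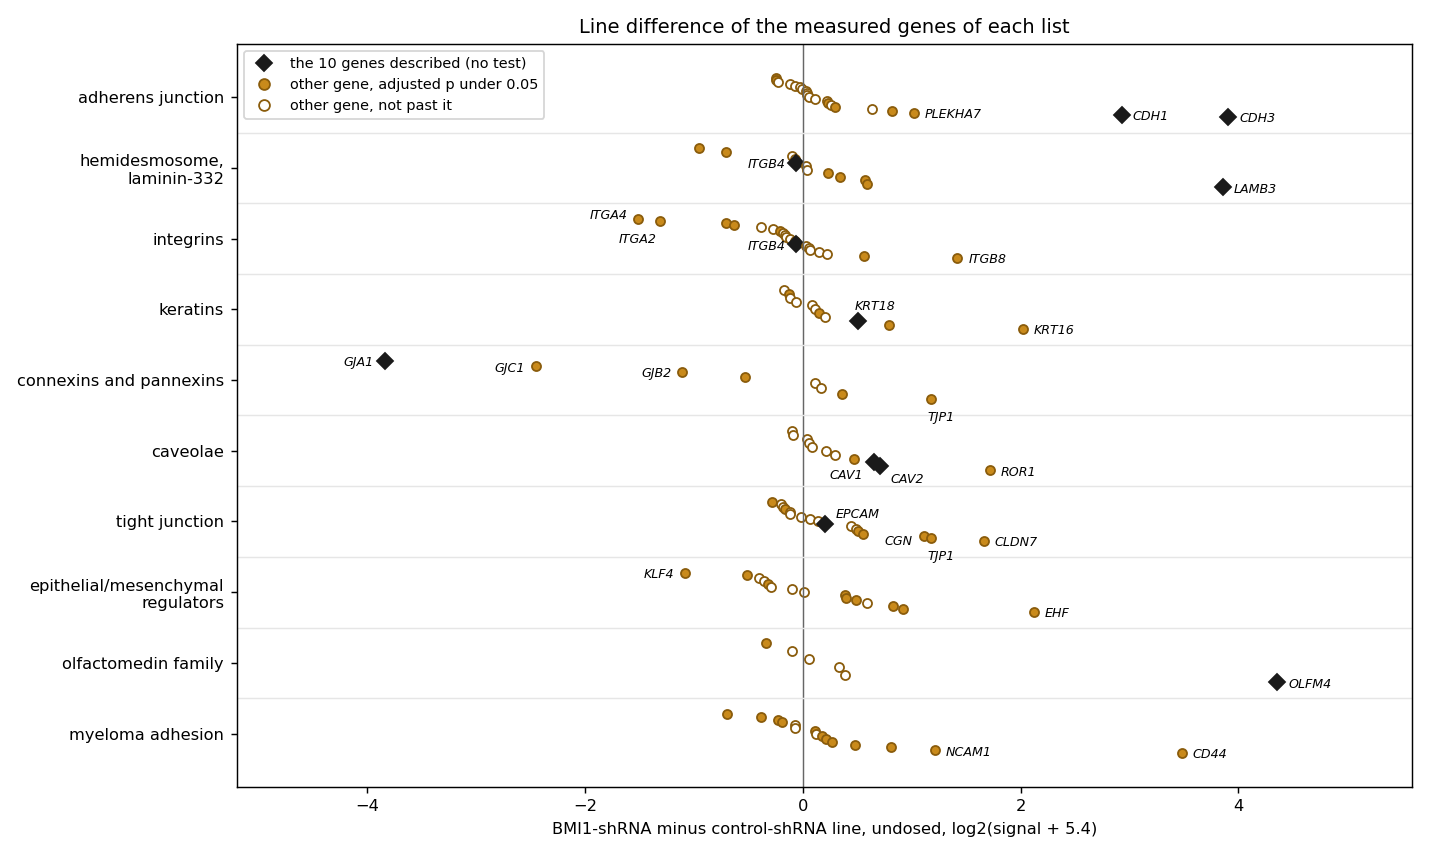
Difference between the undosed lines on log2(signal + 5.4), BMI1-shRNA minus control-shRNA, for each measured gene of the 10 lists; diamonds are the 10 genes described, which were chosen on this difference and not tested, filled circles passed an adjusted p under 0.05 and open circles did not. CDH1, CDH3 and LAMB3 lie at 2.93 to 3.91 and GJA1 at -3.84. With the median as pseudocount the differences of CDH1, CDH3 and LAMB3 are smaller. OLFM4 at 4.36 and CD44 at 3.48 have control-shRNA means below the array median, so their position depends on the pseudocount and is no measured size. Among others, the same holds for PLEKHA7, ITGB8, CLDN7 and EHF. It also holds for GJC1, ITGA4, ITGA2 and ITGA6, whose BMI1-shRNA means are below the array median.

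The genes whose pattern over the arrays was most like a member's were named from all 14704 genes. With the arrays as they are, likeness to a member that separates the lines is set by the step between them, and 484 to 623 genes reached r of 0.9 or more with each of the 5 separating members. The closest to LAMB3 were CD44, G0S2 and BHLHE41 (Pearson's r = 0.992, 0.991 and 0.990 over 42 arrays, resting on that step). The closest to OLFM4 were CLU, MAGEA12 and RIN2, and to GJA1 CDHR1, PRKACB and NLRP11. After each line's mean was subtracted, the closest to GJA1 were API5, PAFAH1B2 and SFXN1 (r = 0.879, 0.871 and 0.869), and to CAV1 RND3, DEPTOR and POU2AF1 (r = 0.863, 0.833 and 0.816). For KRT18 they were RPS27L, MRPS9 and MRPL32 (r = 0.818, 0.805 and 0.798). For CDH1, CDH3, LAMB3 and OLFM4 the highest r within lines was 0.642. These are descriptions over 42 arrays that share line, time and doxycycline.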

How the data were processed

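The unit of the deposited table is intensity: linear signals per probe set on 42 arrays, which the authors made with MAS5, per the submitters' processing notes (no version given). The 2% trimmed mean lay between 150.02 and 150.03, so the arrays had been scaled alike. Array medians were 16.0 to 22.5. Arrays hold no read counts, and 3 per group limits the precision.

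Control probe sets (62) and those that reached the array median on fewer than 3 arrays were left out, which kept 35232. Signals were turned into log2(signal + 5.4), a pseudocount set at the 25th percentile of the table, and a model of the 14 group means was fitted over all kept probe sets with limma 3.58.1 (R 4.3.3), using eBayes with a trend on intensity (28 residual and 8.41 prior degrees of freedom). A call is an adjusted p under 0.05 (Benjamini-Hochberg, over all kept probe sets, two-sided). Tested on simulated data, the fit recovered 62% of log2 changes of 0.5 in the mean doxycycline effect of the BMI1-shRNA line, 43% in its difference between lines, 24% in the effect at 24 h, 29% in the 0 to 24 h step of the control-shRNA line and 16% in the difference of the 24 to 48 h steps. Changes of 1 were recovered at 89%, 73%, 66%, 59% and 35%, in the same order. Each simulation changed 100 of 35232 probe sets by each size, with independent noise. Where the data hold more changes the adjusted p is less strict, so these shares are not those of the real comparisons.

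The 10 genes, the lists and the comparisons were chosen with earlier results of these data known. A gene is read at its brightest kept probe set. From each list the 4 largest called line differences and the 2 smallest called p for doxycycline or time could be named, with the 2 nearest measured genes on each side of a member and the 3 most alike; CTNNB1 and CAVIN1 were named after their values were seen. Names come from the platform annotation (41097 probe sets with 1 symbol, 1801 with several, 11777 with none), gene order from RefSeq GRCh38.p14, and promoters from RefSeq for 5 of the 10 genes. Alternatives changed the pseudocount, normalization, filter, probe set choice, trend and fitted groups, added the replicate number as a block, or left out arrays.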

Additional observations from a re-analysis of the deposited data

Results flagged for a closer look

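The doxycycline effect on GJA1 differed between the lines by -0.46 ± 0.07 on the log2 scale (limma interaction of line and doxycycline over 24, 32 and 48 h, adjusted p = 7.99e-06; each line 9 dosed against 9 undosed arrays), with -0.44 in the BMI1-shRNA line and 0.01 in the control-shRNA line. It passed under all 46 alternatives run, at -0.49 to -0.40. GJA1 read 91.3 on average in the BMI1-shRNA line and 1561.5 in the control-shRNA line, so the effects are set against levels that are 17.1-fold apart.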

How the results depend on the processing

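Counts of members called depended most on which groups entered the fit. Some calls were lost when fitted on the groups of the comparison alone. For doxycycline they went from 1 to 0 (BMI1-shRNA line, 32 h), 2 to 0 (48 h) and 1 to 0 (control-shRNA line, 48 h). For 24 to 48 h they went from 3 to 0 and 1 to 0 in the undosed control-shRNA and BMI1-shRNA lines. Such a fit takes the spread from those groups alone, and why the calls changed was not tested. The difference of the 0 to 24 h effects went from 0 to 1 (CAV1), and its count over all probe sets from 4 to 823. The control-shRNA doxycycline mean went from 2 to 1 with no filter, no trend, its own groups alone or without the BMI1-shRNA cells at 0 h. The effect at 24 h in the BMI1-shRNA line went from 0 to 2 (GJA1 and CAV1) with quantile normalization or the 75th percentile filter. The 0 to 24 h step of KRT18 (1 to 0) was lost with no filter or no trend, and the 24 to 48 h step of the undosed BMI1-shRNA line (1 to 0) with no trend. Leaving out 1 array at a time gave 3 to 5, 1 to 2 and 1 to 2 calls for the doxycycline means of the BMI1-shRNA line, the control-shRNA line and their difference; 0 to 1, 1 and 2 at 24, 32 and 48 h in the BMI1-shRNA line; 0 to 1 at 24 and 48 h in the control-shRNA line; 0 for its 0 to 24 h step; and 1 to 3 and 0 to 1 for 24 to 48 h in the undosed control-shRNA and BMI1-shRNA lines. OLFM4 in the control-shRNA line, all of whose arrays are below the array median, was called for doxycycline at 24 h (1.24, limma adjusted p = 0.0324) and from 24 to 48 h (1.09, adjusted p = 0.034) without replicate 1 of the undosed 24 h group. The line difference called 12362 probe sets, 11844 to 12180 with 1 array left out, and 6458 with 1 probe set per gene. With the median as pseudocount the line differences shrank to 2.63 for CDH1, 3.49 for CDH3, 3.41 for LAMB3 and 3.23 for OLFM4 (5.27 with a pseudocount of 1). No member reversed its direction among called results.

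Over all probe sets, counts moved by over 1.5 times in these comparisons, leaving out those with under 10 calls. With 1 probe set per gene they went from 2054 to 1220 for doxycycline in the BMI1-shRNA line (486 to 323 at 32 h, 1348 to 787 at 48 h), 893 to 554 for the difference between lines, 326 to 208 for 0 to 24 h in the control-shRNA line and 210 to 140 for 24 to 48 h in the BMI1-shRNA line. Fitted on the groups alone, they fell for doxycycline (316 to 167, 486 to 220 and 1348 to 516 at 24, 32 and 48 h in the BMI1-shRNA line, 25 to 16 for the control-shRNA mean) and for 24 to 48 h (126 to 9 and 210 to 14 undosed, 57 to 1 and 431 to 24 dosed, in the control-shRNA and BMI1-shRNA lines), but rose for 0 to 24 h (326 to 883 and 259 to 422). With the 75th percentile filter they were 549 and 546 for 0 to 24 h, 246 and 415 for 24 to 48 h undosed, and 89 and 655 dosed. With no trend they were 72 and 108 for 24 to 48 h undosed and 169 for 0 to 24 h in the BMI1-shRNA line, which quantile normalization put at 389, and having no filter also lowered the 24 to 48 h count of that line. Leaving out 1 array at a time gave 188 to 249 for doxycycline at 24 h in the BMI1-shRNA line, 169 to 228 and 98 to 162 for 0 to 24 h, and 35 to 150 and 72 to 105 for 24 to 48 h undosed, in the control-shRNA and BMI1-shRNA lines. Replicate numbers do not pair the arrays (mean r of 0.000986 for arrays of the same number, -0.000491 for others; 14 of 42 arrays correlated best with their own number). With the number as a replicate block the member calls were 4, 2 and 1 for the doxycycline means and 12391 probe sets for the line difference, and no member call changed.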
